A study of Mus musculus with 11 samples.

Results

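Keratins and keratin-associated proteins were described in the colon of 2-week-old mice, 6 of genotype Tnfr1-/- and 5 wild type. The members are all genes of the deposited table whose symbol starts with Krt or Krtap followed by a digit, 113 of 35683 genes. The Tnfr1-/- mice lack TNFR1, the receptor encoded by Tnfrsf1a through which the cytokine TNF acts on most cells, and the title of the series asks what its deletion does in early life. Colons were dissected and homogenised, RNA was extracted, and mRNA was sequenced. No layer of the wall and no length of colon is named in the labels, nor are strain, sex, litter and batch, so the p-values measure the spread between these 11 samples. Groups are given as mean ± SD, with n = 6 for Tnfr1-/- and n = 5 for wild type, unless an SE is named. All values below are the authors' abundances, TPM (a relative level per transcript length) scaled by one size factor per library, and carry no further unit.

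Keratins are the intermediate filament proteins of epithelial cells, and each filament is built from pairs of an acidic type I and a basic type II chain. Simple epithelia such as the lining of the gut use Krt8 with Krt18, Krt19 and Krt20. Stratified squamous epithelia use Krt5 with Krt14 in their basal layer and other pairs above it, and hair follicles use their own root sheath and shaft keratins, with the shaft filaments embedded in small keratin-associated proteins rich in sulfur or in glycine and tyrosine. The members were sorted on that basis into 4 gut keratins, 20 squamous keratins, 9 keratins of the hair root sheath, 15 keratins of the hair shaft, 58 keratin-associated proteins and 7 other keratins. The root sheath, shaft and keratin-associated genes, 82 in all, are called hair genes below.

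The gene check of the genotype came first. Tnfrsf1a was at 19.9, 25.2, 19.01, 21.96, 20.2 and 28.0 in Tnfr1-/- replicates 1 to 6, against 73.1, 70.2, 61.7, 68.3 and 62.0 in wild-type replicates 1 to 5. The groups did not overlap (limma adjusted p = 8.52e-05; log2 fold change -1.57 ± 0.10, SE). It was the single gene called in the whole table, 0.00663% of 15079 genes tested. Estimated depth was 27.6 to 42.1 M reads per library. Gut epithelial genes were present in every library. Lgals4, a galectin of the intestinal epithelium, ranged from 2090 to 2953 in Tnfr1-/- and from 2195 to 3462 in wild-type colons.

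Of the 113 keratin genes, 101 reached a value of 1 in at least 5 libraries and were tested: 4 gut, 14 squamous, 8 root sheath, 15 shaft, 55 keratin-associated and 5 other. None was called at an adjusted p under 0.05. At an unadjusted p under 0.05 there were 4, all squamous and all higher in Tnfr1-/- colons, which is 3.96% of the members tested against 9.37% of all genes (4.2% higher and 5.17% lower in Tnfr1-/- colons). In no keratin gene were the groups free of overlap, against 1.49% of all genes. Of all genes, 47.9% had a fold change above 0, and the median was -0.01 on the log2 scale.

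The genes lie in a few clusters, and the stretch just before the transcript start is shown for 8 of them because the letters TATAAA are more frequent there in hair genes than in all genes. On chromosome 11 lie 27 type I keratins, all but Krt18, which lies on chromosome 15. The 26 type II keratins lie on chromosome 15, with the pseudogene Krt8-ps on chromosome 7. Keratin-associated genes lie on chromosomes 16 (25 genes), 11 (23), 7 (5), 10 (3) and 1 (2). Each line gives the 100 bases before the start from RefSeq on GRCm38.p6, on the gene's own strand, with TATAAA in capitals.

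Krt8, chr15:102004343-102004442, minus strand: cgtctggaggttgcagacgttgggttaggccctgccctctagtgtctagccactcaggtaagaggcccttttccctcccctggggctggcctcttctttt
Krt18, chr15:102028116-102028215, plus strand: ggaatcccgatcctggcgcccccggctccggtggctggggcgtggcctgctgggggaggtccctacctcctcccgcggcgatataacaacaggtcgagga
Krt20, chr11:99438154-99438253, minus strand: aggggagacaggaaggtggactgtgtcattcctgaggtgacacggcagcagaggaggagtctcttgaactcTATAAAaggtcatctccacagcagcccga
Krt5, chr15:101712906-101713005, minus strand: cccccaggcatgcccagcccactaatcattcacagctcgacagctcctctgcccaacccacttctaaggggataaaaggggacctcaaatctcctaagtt
Krt14, chr11:100206031-100206130, minus strand: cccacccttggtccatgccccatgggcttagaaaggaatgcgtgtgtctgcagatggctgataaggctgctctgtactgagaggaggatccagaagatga
Krt71, chr15:101743098-101743197, minus strand: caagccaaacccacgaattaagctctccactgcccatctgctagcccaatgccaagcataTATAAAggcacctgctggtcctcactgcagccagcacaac
Krt27, chr11:99351119-99351218, minus strand: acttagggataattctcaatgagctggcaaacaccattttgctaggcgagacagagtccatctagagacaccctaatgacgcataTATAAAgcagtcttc
Krtap8-1, chr16:89487953-89488052, minus strand: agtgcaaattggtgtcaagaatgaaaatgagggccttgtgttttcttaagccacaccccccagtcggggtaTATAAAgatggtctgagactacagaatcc

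RefSeq windows were found for 87 of the 113 genes, 88 windows in all. The letters TATAAA, read on either strand in the 250 bases before the start, were present in 54 of 68 windows of hair genes, 79.4%, against 12.4% of all 32851 windows. They were present in 3 of 14 squamous windows, in 1 of 3 gut windows (Krt20) and in 0 of 3 windows of other keratins. Within 40 to 16 bases before the start on the gene's strand, they were in 58.8% of hair windows and 1.99% of all windows. The letters GCCNNNGGC, read on both strands, were in 1.47% of hair windows and 13.7% of all, and CTTTGAT, also on both strands, in 4.41% and 3.21%. Many keratin-associated genes are copies of one another, so their windows are not independent.

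Krt8 was the most abundant keratin gene in each of the 11 libraries, and the gut keratins overlapped between the genotypes. Their summed abundance was 5110, 4760, 3708, 3546, 3949 and 3389 in Tnfr1-/- colons, against 5441, 6662, 3456, 3700 and 3567 in wild-type colons. The means were 4077 ± 699 and 4565 ± 1426. Wild-type replicates 1 and 2 were the highest of all 11, Tnfr1-/- replicates 1 and 2 came next, and the groups overlapped. All 4 genes had fold changes below 0 with a median of -0.12 on the log2 scale, and none passed the test.

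Krt8, the type II chain of simple epithelia, was at 2393, 2221, 1772, 1655, 1915 and 1684 in Tnfr1-/- colons, against 2495, 3096, 1607, 1805 and 1669 in wild-type colons. Its difference on the log2 scale was -0.10 ± 0.18 (SE), with a limma adjusted p of 0.897. Krt19, a type I chain that carries a very short tail, was at 2217, 2080, 1573, 1531, 1673 and 1399 in Tnfr1-/- colons, against 2266, 2886, 1536, 1541 and 1567 in wild-type colons, a log2 fold change of -0.14 ± 0.19 (SE, adjusted p = 0.859 by limma). Both genes repeated the order of the sum at its upper end, with wild-type replicate 2 highest. Krt18, the usual partner of Krt8, was at 283, 231, 217, 220, 218 and 171 in Tnfr1-/- colons, against 258, 295, 195, 203 and 204 in wild-type colons, a log2 fold change of -0.04 ± 0.14 (SE, adjusted p = 0.952 by limma). Krt20, a keratin of mature surface cells of the gut lining, was at 217, 229, 146, 140, 142 and 136 in Tnfr1-/- colons, against 422, 384, 117, 151 and 127 in wild-type colons. Wild-type replicates 1 and 2 lay above every Tnfr1-/- library, and the other wild-type libraries lay between 117 and 151. Krt20 differed by a log2 fold change of -0.32 ± 0.35 (SE), with a limma adjusted p of 0.809.

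**Figure D1:**
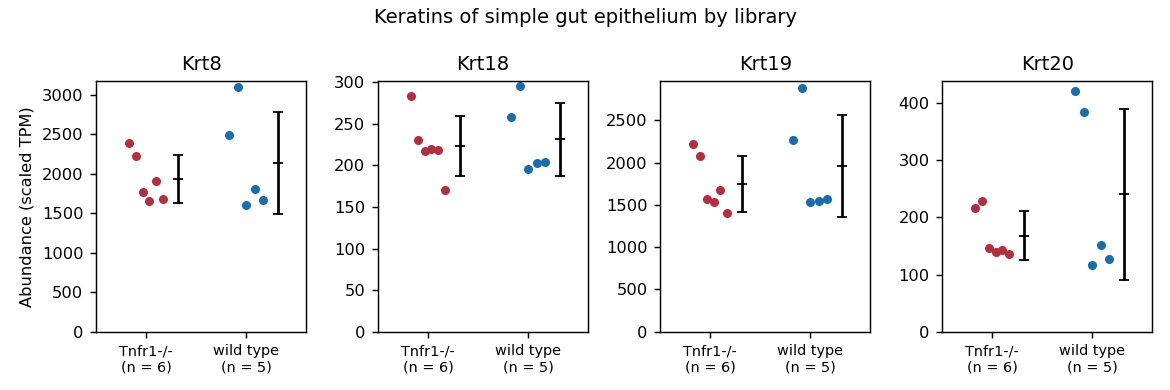
Abundance (scaled TPM) of the gut keratins Krt8, Krt18, Krt19 and Krt20 in each library, with Tnfr1-/- libraries to the left and wild-type libraries to the right. Points are libraries and bars show mean ± SD. The groups overlap in every panel, and Krt20 is at 422 and 384 in wild-type replicates 1 and 2.

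Krt19 kept a nearly constant proportion to Krt8, and Krt18 a looser one. Krt20 was highest relative to Krt8 in wild-type replicates 1 and 2. The ratio of Krt19 to Krt8 lay between 0.831 and 0.956 over all 11 libraries, and that of Krt18 to Krt8 between 0.0953 and 0.133. The ratio of Krt20 to Krt8 was 0.0743 to 0.103 in Tnfr1-/- colons and 0.0730 to 0.169 in wild-type colons. It was 0.169 and 0.124 in wild-type replicates 1 and 2. The type I genes of this class summed to 1.013 to 1.18 times Krt8, its only type II gene, over all 11 libraries. Krt7, also type II, is counted outside this class, and the values are transcript levels, not protein levels. Relative to Epcam, an adhesion molecule of the gut lining, Krt8 lay at 2.31 to 3.13 in Tnfr1-/- and at 2.25 to 3.27 in wild-type colons. In tissue of mixed cells, fewer cells of a type and less RNA per cell cannot be told apart.

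Epithelial genes outside the family were also slightly lower in Tnfr1-/- colons. All 8 genes of an epithelial list had fold changes below 0, with a median of -0.15 on the log2 scale, and 1 had an unadjusted p under 0.05. That gene was Cldn7, a claudin of tight junctions, at 533 ± 34.2 in Tnfr1-/- and 613 ± 62.5 in wild-type colons (limma adjusted p = 0.449). The list summed to 4146 to 5585 in Tnfr1-/- and 4456 to 6651 in wild-type colons, with wild-type replicate 2 highest and Tnfr1-/- replicate 6 lowest, the same libraries as for the gut keratins. A fit with a score of this list as covariate was also run. Its log2 fold changes were 0.11 for Krt8, 0.12 for Krt18, 0.095 for Krt19 and 0.096 for Krt20. None of them was called in that fit, and the share of epithelial tissue in the gut keratin values was not tested.

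The squamous keratins were higher in 5 of the 6 Tnfr1-/- colons than in any wild-type colon, and Tnfr1-/- replicate 5 was the lowest library of all. Their summed abundance was 1602, 1444, 1131, 1794, 398 and 2047 in Tnfr1-/- colons, against 711, 924, 1031, 682 and 811 in wild-type colons. The means were 1403 ± 582 and 832 ± 146, and 1604 ± 347 without Tnfr1-/- replicate 5. All 14 genes tested had fold changes above 0, with a median of 0.53 on the log2 scale, and none passed the test after adjustment.

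Krt5 and Krt14, the basal layer pair, reached similar levels. Krt5 was at 166, 159, 130, 365, 19.2 and 249 in Tnfr1-/- colons, against 73.8, 117, 114, 76.5 and 77.4 in wild-type colons. Krt14 was at 231, 211, 166, 268, 18.8 and 306 in Tnfr1-/- colons, against 94.8, 139, 135, 90.9 and 134 in wild-type colons. For both genes 5 Tnfr1-/- libraries lay above every wild-type library and replicate 5 lay below every one. The log2 fold changes were 0.59 ± 0.61 for Krt5 and 0.38 ± 0.62 for Krt14 (SE; limma adjusted p = 0.793 and 0.888). Krt15, a type I keratin of basal cells, was at 119, 142, 90.6, 341, 27.9 and 134 in Tnfr1-/- colons, against 53.5, 96.2, 73.2, 53.0 and 68.9 in wild-type colons (log2 fold change 0.73 ± 0.49, SE; limma adjusted p = 0.675). Tnfr1-/- replicate 4 stood apart for Krt15.

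Krt1 and Krt10, the pair of cells above the basal layer in skin, were closer in ratio than the basal pair. Krt1 was at 227, 166, 138, 128, 52.2 and 202 in Tnfr1-/- colons, against 87.3, 96.9, 130, 115 and 87.5 in wild-type colons (log2 fold change 0.44 ± 0.32, SE; limma adjusted p = 0.703). Krt10 was at 354, 276, 248, 233, 91.6 and 417 in Tnfr1-/- colons, against 146, 180, 237, 173 and 158 in wild-type colons (log2 fold change 0.47 ± 0.32, SE; limma adjusted p = 0.681). Krt10 was 1.51 to 2.06 times Krt1 in the 11 libraries, while Krt14 was 0.734 to 1.74 times Krt5, lowest in Tnfr1-/- replicate 4. In both genes of the pair, replicate 5 was the lowest library, and the groups overlapped through it and, for Krt1 and Krt10, through wild-type replicate 3.

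Krt4 and Krt13, the pair of non-cornified lining such as that of mouth and oesophagus, and Krt6a and Krt6b, type II keratins of hair follicles and of stressed or rapidly dividing epidermis, held the 4 unadjusted p-values under 0.05. Krt4 was at 55.2, 73.6, 26.2, 43.5, 40.03 and 52.7 in Tnfr1-/- colons, against 31.8, 31.9, 31.6, 15.97 and 43.4 in wild-type colons (log2 fold change 0.64 ± 0.28, SE; limma adjusted p = 0.519). Krt13 was at 147, 183, 67.7, 67.2, 100.01 and 144 in Tnfr1-/- colons, against 76.7, 59.8, 81.2, 38.1 and 95.9 in wild-type colons (log2 fold change 0.71 ± 0.31, SE; limma adjusted p = 0.523). In both genes Tnfr1-/- replicates 1, 2 and 6 lay above every wild-type library and the others lay within its range or just above it. Krt6a was at 72.7, 64.7, 30.2, 33.5, 22.4 and 70.9 in Tnfr1-/- colons, against 26.7, 26.9, 28.1, 11.2 and 36.9 in wild-type colons (log2 fold change 0.86 ± 0.37, SE; limma adjusted p = 0.520). Krt6b was at 29.9, 27.0, 8.97, 6.53, 14.2 and 25.8 in Tnfr1-/- colons, against 8.84, 7.15, 9.70, 3.55 and 14.2 in wild-type colons (log2 fold change 0.98 ± 0.44, SE; limma adjusted p = 0.527). The same replicates 1, 2 and 6 were highest in both. The pair have near-identical sequences, so reads may be shared between them, and none of these 4 p-values stayed under 0.05 when Tnfr1-/- replicate 1, 2 or 6 or wild-type replicate 4 was left out.

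The Krt4 and Krt13 levels did not follow the basal keratins. In Tnfr1-/- replicate 5, where Krt5 was at 19.2, Krt13 was at 100.01, so the ratio of Krt13 to Krt5 was 5.21. It was 0.184 in Tnfr1-/- replicate 4 and 0.498 to 1.24 in wild-type colons. The ratio of Krt13 to Krt4 was 1.54 to 2.73 in all 11 libraries. The mucosal pair thus kept its own proportion while its proportion to the basal pair varied.

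Of the remaining squamous keratins, Krt16 and Krt78 were the least abundant of those tested. Krt16, a partner of Krt6a, was at 7.35 ± 4.21 in Tnfr1-/- and 3.39 ± 1.28 in wild-type colons, a log2 fold change of 0.84 ± 0.44 (SE, adjusted p = 0.588 by limma). Krt78, a type II keratin of squamous epithelia, was at 4.43 ± 1.599 in Tnfr1-/- and 2.96 ± 0.54 in wild-type colons (log2 fold change 0.46 ± 0.22, SE; limma adjusted p = 0.563). Krt17, a keratin of the outer root sheath and of skin appendages, was at 5.54 in Tnfr1-/- replicate 5 and 50.4 to 267 in the other Tnfr1-/- libraries, against 45.8 to 103 in wild-type colons. Krt79, found in the gland duct and follicle opening in mouse skin, was at 1.68 in Tnfr1-/- replicate 5 and 61.8 to 100.5 in the others, against 32.7 to 53.0 in wild-type colons. Krt77 was at 0.165 in Tnfr1-/- replicate 5 and 6.76 to 62.2 in the others, against 6.06 to 33.4 in wild-type colons. Relative to the wild-type mean, these 3 were the lowest of the tested squamous keratins in replicate 5. Krt2, a keratin of the upper epidermis, peaked at 1.58, in Tnfr1-/- replicate 1, and was not tested. Krt12, Krt42, Krt9, Krt24 and Krt76 did not reach 1 in any library.

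**Figure D2:**
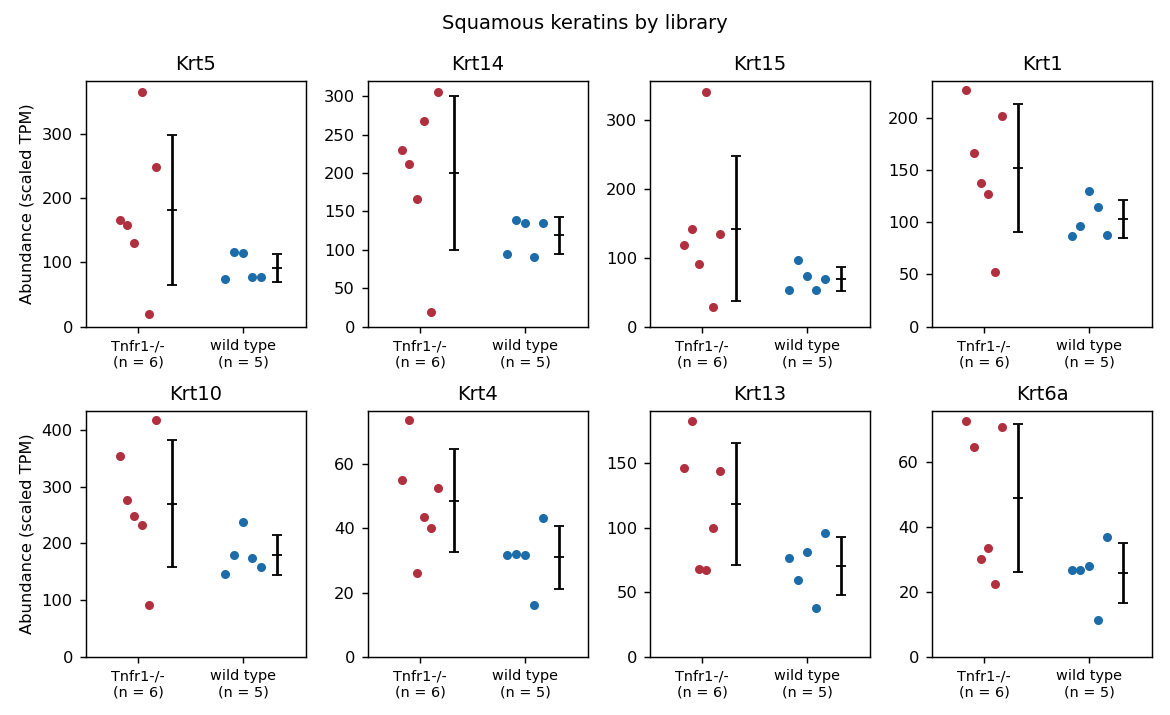
Abundance (scaled TPM) of 8 squamous keratins in each library, Tnfr1-/- to the left of wild type; points are libraries and bars show mean ± SD. Tnfr1-/- replicate 5 is the low point for Krt5, Krt14, Krt15, Krt1 and Krt10 (19.2, 18.8, 27.9, 52.2 and 91.6), and lies within the other libraries for Krt4 and Krt13.

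Genes of squamous tissue outside the family moved with these keratins. All 20 genes of a squamous list had fold changes above 0, with a median of 0.47 on the log2 scale, and 1 had an unadjusted p under 0.05. The list summed to 1710, 1818, 1473, 1997, 635 and 2729 in Tnfr1-/- colons, against 1049, 1517, 1318, 833 and 1091 in wild-type colons. Krtdap, a secreted protein of differentiating keratinocytes, was at 393 ± 155 in Tnfr1-/- and 244 ± 58.5 in wild-type colons. Lgals7, a galectin of stratified epithelia, was at 233 ± 122 in Tnfr1-/- and 144 ± 30.9 in wild-type colons, and Sfn, the 14-3-3 sigma protein, at 194 ± 61.2 in Tnfr1-/- and 168 ± 47.9 in wild-type colons. Sprr1b, a precursor of the cornified envelope, had the unadjusted p under 0.05 (limma adjusted p = 0.525). No gene of the list was called, and the part of the squamous tissue in the keratin values was not tested.

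The hair genes held the widest spread of the family, and it was a spread between libraries more than between genotypes. Their summed abundance was 1702, 434, 6805, 11076, 38.0 and 18443 in Tnfr1-/- colons, against 2296, 3529, 5038, 1347 and 1708 in wild-type colons. The means were 6416 ± 7283 in Tnfr1-/- and 2784 ± 1508 in wild-type colons. The Tnfr1-/- libraries spanned a 485-fold range around the wild-type range of 3.74-fold. In Tnfr1-/- replicate 6 the hair genes held 1.79% of all abundance, and in Tnfr1-/- replicate 5 they held 0.00381%. In Tnfr1-/- replicates 3, 4 and 6 the sum lay above every wild-type library and in replicates 2 and 5 below every one. Of the 78 hair genes tested none was called and none had an unadjusted p under 0.05. On the log2 scale 59 of the 78 had fold changes below 0, although the mean of the sum was higher in Tnfr1-/- colons.

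**Figure D3:**
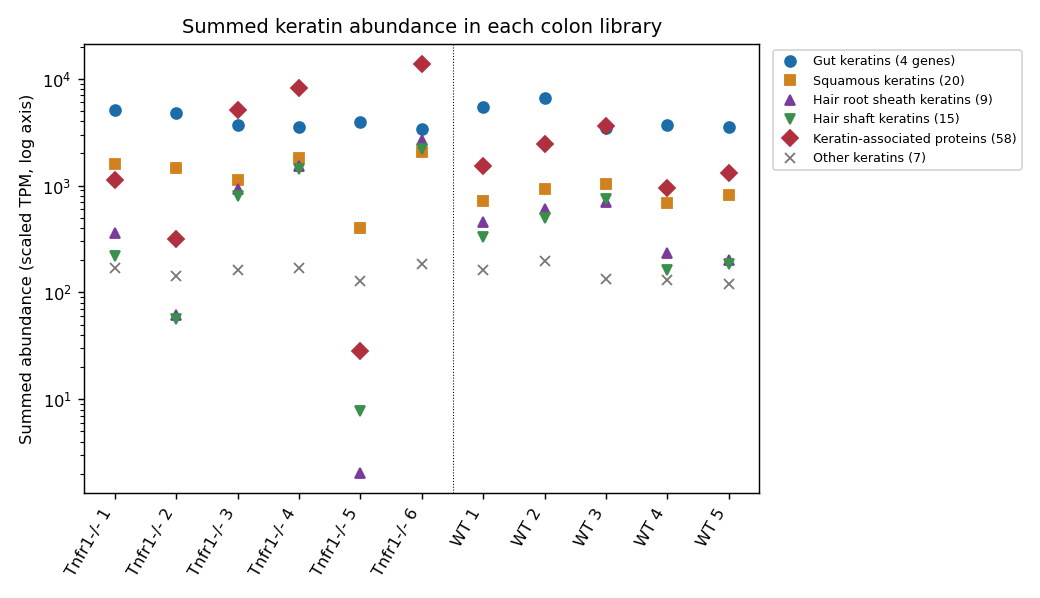
Summed abundance (scaled TPM, log axis) of the keratin classes in each library, Tnfr1-/- libraries to the left of the dotted line and wild-type libraries to its right. The gut keratins stay between 3389 and 6662, whereas the keratin-associated proteins run from 28.3 in Tnfr1-/- replicate 5 to 13596 in Tnfr1-/- replicate 6.

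The order of the libraries was shared by nearly all of these genes. Of the 82 hair genes, 75 were highest in Tnfr1-/- replicate 6 and 78 were lowest in Tnfr1-/- replicate 5, where 18 were at 0 and 74 were below 1. Among the 78 tested, Tnfr1-/- replicate 4 had a median rank of 2 and replicate 3 of 3, and Tnfr1-/- replicate 2 had a median rank of 10, between replicate 5 and wild-type replicate 4. Of the 100 genes of the whole table with the largest residual SD on the log2 scale, 56 were keratin family members, which made up 0.67% of the genes tested. They were 39 keratin-associated genes, 9 shaft keratins, 7 root sheath keratins and 1 squamous keratin. Krtap19-4 had the largest residual SD of all genes, 2.99, against a median of 0.165 over the table.

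The root sheath keratins form the sheath that moulds the growing hair. Krt71, the type II keratin of the inner root sheath, was at 106, 15.9, 293, 412, 0.454 and 763 in Tnfr1-/- colons, against 121, 159, 213, 77.0 and 56.3 in wild-type colons. Its difference on the log2 scale was -0.62 ± 1.496 (SE), with a limma adjusted p of 0.938, with a 95% interval of -3.91 to 2.66. Even in replicate 5 the estimate is about 30.0 reads for Krt71, so the level there was low and above 0. Its type I partners followed it: Krt27 was 0.591 to 0.847 times Krt71 and Krt25 was 0.654 to 0.925 times Krt71 in all 11 libraries. Krt27 was at 563 in Tnfr1-/- replicate 6 and 0.322 in replicate 5, against 45.5 to 141 in wild-type colons. Krt25 was at 516 in Tnfr1-/- replicate 6 and 0.345 in replicate 5, against 39.3 to 158 in wild-type colons. These 2 ratios varied little while Krt71 itself ranged from 0.454 to 763. The ratio of Krt28 to Krt71 varied more, from 0.224 to 0.465 in Tnfr1-/- and from 0.213 to 0.420 in wild-type colons.

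The other sheath keratins showed the same order of libraries. Krt72 was at 280 in Tnfr1-/- replicate 6 and 0.291 in replicate 5, against 11.996 to 69.4 in wild-type colons. Krt28 was at 244 and 0.211 in those Tnfr1-/- replicates, against 16.4 to 61.5 in wild-type colons, and Krt73 at 135 and 0.153, against 11.6 to 42.4. Krt26 was at 102 in Tnfr1-/- replicate 6 and 0.106 in replicate 5, against 6.26 to 27.3 in wild-type colons. Krt75, the keratin of the companion layer between the inner and outer sheath, was at 47.1 in Tnfr1-/- replicate 6 and 0.157 in replicate 5, against 4.08 to 15.1 in wild-type colons. All 8 tested sheath keratins had fold changes below 0 with a median of -0.44 on the log2 scale, with the median residual SD at 2.51. On the unlogged scale the direction was the opposite. The summed sheath keratins had means of 921 ± 1026 in Tnfr1-/- and 440 ± 222 in wild-type colons. The authors' deposited log2 ratio of group means was above 0 for each of these 8 genes, at 1.08 for Krt71. Krt74 peaked at 1.89, in Tnfr1-/- replicate 6, and was not tested.

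The shaft keratins, which make up the hair fibre itself, summed to 221, 55.8, 795, 1428, 7.70 and 2195 in Tnfr1-/- colons, against 328, 498, 756, 161 and 185 in wild-type colons. Type I chains were 1.00 to 1.14 times type II chains in all libraries but Tnfr1-/- replicate 5, where the ratio was 0.337. In that library the type I chains summed to 1.94 and the type II chains to 5.76, of which Krt84 alone made up 3.39. Of the 15 shaft keratins, 5 had fold changes above 0, with a median of -0.28 on the log2 scale. Keratins of the hair cortex led. Krt83 was at 336 in Tnfr1-/- replicate 6 and 0.522 in replicate 5, against 21.8 to 109 in wild-type colons. Krt33a was at 313 and 0.193 in the same Tnfr1-/- replicates, against 21.1 to 108 in wild-type colons, and Krt81 at 280 and 0.263, against 20.2 to 95.8. Krt34 was at 264 in Tnfr1-/- replicate 6 and 0.183 in replicate 5, against 17.8 to 82.8 in wild-type colons, and Krt86 at 215 and 0.467, against 14.9 to 69.1. Krt31 was at 205 in Tnfr1-/- replicate 6 and 0.338 in replicate 5, against 14.1 to 75.8 in wild-type colons, and Krt33b at 170 and 0.204, against 13.05 to 55.2. Krt81, Krt83 and Krt86 are close copies, as are Krt33a and Krt33b, so their separate values are uncertain.

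Of the remaining shaft keratins, Krt87 was at 185 in Tnfr1-/- replicate 6 and 1.12 in replicate 5, against 14.9 to 68.6 in wild-type colons, and Krt35, an early keratin of the hair cortex, at 119 and 0.138, against 7.72 to 52.9. Krt32 was at 50.2 in Tnfr1-/- replicate 6 and 0.188 in replicate 5, against 4.50 to 16.4 in wild-type colons. Krt82 was at 18.5 in Tnfr1-/- replicate 6 and 0 in replicate 5, against 1.33 to 7.53 in wild-type colons. Krt39 was at 12.7 and 0.0241 in these Tnfr1-/- replicates, against 0.790 to 4.19 in wild-type colons, and Krt40 at 10.6 and 0, against 0.684 to 3.25. The shaft keratin Krt84 left this order: it was at 3.39 to 7.73 in Tnfr1-/- colons, against 2.74 to 8.15 in wild-type colons, with wild-type replicate 2 highest. Krt36 was at 0.674 to 10.3 in Tnfr1-/- colons, against 1.61 to 9.07 in wild-type colons, and was also high in wild-type replicate 2.

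The keratin-associated proteins, which cross-link the shaft filaments, held most of the hair abundance. The 58 genes summed to 1122, 316, 5081, 8122, 28.3 and 13596 in Tnfr1-/- colons, against 1511, 2426, 3579, 954 and 1320 in wild-type colons. Of the 55 tested, 14 had fold changes above 0, with a median of -0.20 on the log2 scale. The families rich in glycine and tyrosine (Krtap6, 7, 8, 19, 20, 21 and 22) summed to 1.80 to 2.62 times the sulfur-rich families (Krtap1 to 5, 9 to 13 and 17) in Tnfr1-/- colons, and to 1.67 to 2.62 times in wild-type colons. The balance between these listed sets stayed within a narrow range as their sum moved. The other 12 genes were counted in neither set and summed to 1953 in Tnfr1-/- replicate 6. Their composition was not examined, so the ratio holds for the listed families only. The genes on chromosome 16 summed to 10643 in Tnfr1-/- replicate 6 and those on chromosome 11 to 2704.

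Krtap8-1, a glycine- and tyrosine-rich protein, was at 154, 38.8, 539, 992, 1.98 and 1567 in Tnfr1-/- colons, against 223, 353, 458, 98.6 and 148 in wild-type colons (log2 fold change -0.54 ± 1.45, SE; limma adjusted p = 0.946). Krtap7-1 was 0.751 to 0.867 times Krtap8-1 in all 11 libraries, at 1286 in Tnfr1-/- replicate 6 and 1.71 in replicate 5, against 74.5 to 355 in wild-type colons. This ratio varied less than those of Krt25 and Krt27 to Krt71, and its members lie in the same cluster of chromosome 16. Krtap22-2 was at 974 in Tnfr1-/- replicate 6 and 0.831 in replicate 5, against 75.9 to 215 in wild-type colons. Krtap21-1 was at 163 and 0.511 in those replicates, against 17.2 to 42.4 in wild-type colons, and Krtap20-2 at 7.22 and 0, against 0.885 to 6.9999. In Tnfr1-/- replicate 6, the Krtap6 genes were at 490 (Krtap6-1), 373 (Krtap6-5), 193 (Krtap6-2) and 90.9 (Krtap6-3), and all 4 were at or below 1.007 in replicate 5, while their sum was 111 to 264 in wild-type colons.

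The Krtap19 family, 7 genes rich in glycine and tyrosine, summed to 148, 57.2, 1251, 1916, 8.81 and 3285 in Tnfr1-/- colons, against 229, 268, 781, 228 and 307 in wild-type colons. In Tnfr1-/- replicate 6 its members were at 851 (Krtap19-9a), 576 (Krtap19-9b), 555 (Krtap19-5), 553 (Krtap19-3), 421 (Krtap19-4), 198 (Krtap19-2) and 131 (Krtap19-1). In replicate 5 Krtap19-9a was at 6.64 and the other 6 were below 1. The ratio of the Krtap19 family to Krtap8-1 was 0.960 to 4.46 in Tnfr1-/- and 0.761 to 2.31 in wild-type colons, so the family did not keep a fixed proportion as Krtap7-1 did. Wild-type replicate 3 was the highest wild-type library for the family. The members share sequence, so the split between them is uncertain.

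The families counted as sulfur-rich were led by Krtap3. In Tnfr1-/- replicate 6 its genes were at 447 (Krtap3-1), 416 (Krtap3-3) and 194 (Krtap3-2), and the family summed to 3.47 in replicate 5, against 78.7 to 281 in wild-type colons. The Krtap1 genes were at 354 (Krtap1-5), 57.5 (Krtap1-3) and 27.8 (Krtap1-4) in Tnfr1-/- replicate 6, and the family summed to 1.16 in replicate 5, against 32.02 to 116 in wild-type colons. Krtap2-4 was at 140 in Tnfr1-/- replicate 6 and 0.596 in replicate 5, against 9.07 to 35.6 in wild-type colons. Each of these 3 families was thus below every wild-type library in replicate 5. The 8 Krtap4 genes in Tnfr1-/- replicate 6 were at 137 (Krtap4-1), 121 (Krtap4-7), 84.8 (Krtap4-6), 82.5 (Krtap4-2), 70.4 (Krtap4-16), 35.0 (Krtap4-8), 11.5 (Krtap4-9) and 4.62 (Krtap4-13). The family summed to 2.36 in replicate 5, against 40.9 to 182 in wild-type colons. Its 2 least abundant genes were at 11.5 and 4.63 in wild-type replicate 2, about equal to Tnfr1-/- replicate 6.

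The Krtap9 genes were at 284 (Krtap9-3), 88.4 (Krtap9-1) and 2.42 (Krtap9-5) in Tnfr1-/- replicate 6, and the family summed to 0.658 in replicate 5, against 25.5 to 102 in wild-type colons. Krtap11-1 was at 253 in Tnfr1-/- replicate 6 and 0.260 in replicate 5, against 16.2 to 99.7 in wild-type colons, and Krtap13-1 at 171 and 0.110, against 12.1 to 64.3. Krtap17-1 was at 84.4 in Tnfr1-/- replicate 6 and 0.161 in replicate 5, against 5.41 to 24.6 in wild-type colons. Krtap11-1, Krtap13-1 and Krtap17-1 thus shared the highest and the lowest library of the sheath keratins. Krtap10-10 was at 30.6 and Krtap10-4 at 27.6 in Tnfr1-/- replicate 6, both at 0 in replicate 5, while their sum was 4.48 to 17.2 in wild-type colons. Krtap12-1 was at 25.2 and 0.132 in those replicates, against 1.93 to 8.12 in wild-type colons. The Krtap5 genes tested were at 32.7 (Krtap5-5), 16.2 (Krtap5-4), 8.63 (Krtap5-2) and 7.76 (Krtap5-1) in Tnfr1-/- replicate 6, and each was below 0.1 in replicate 5.

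The families counted in neither set followed as well. Krtap15 was at 723 in Tnfr1-/- replicate 6 and 0.507 in replicate 5, against 30.9 to 198 in wild-type colons. Krtap16-3 was at 525 and 0.150 in those replicates, against 39.1 to 143 in wild-type colons, and Krtap14 at 428 and 0.275, against 18.2 to 117. Krtap26-1 was at 92.2 and 1.98, against 7.25 to 26.8 in wild-type colons, and Krtap24-1 at 16.6 and 0.0219, against 1.19 to 5.47. Krtap28-10 was at 51.9, Krtap28-13 at 48.1, Krtap16-1 at 32.3 and Krtap27-1 at 6.91 in Tnfr1-/- replicate 6, and all 4 were at 0 in replicate 5. Krtap31-1 and Krtap31-2 broke the pattern at the top: they were at 16.7 and 9.86 in Tnfr1-/- replicate 6, against up to 17.98 and 14.8 in wild-type colons, with wild-type replicate 3 highest, as it was for Krtap9-5. Of the genes not tested, Krtap29-1 peaked at 3.04 in Tnfr1-/- replicate 6, Krtap5-3 at 0.731 and Krtap13 at 0.225.

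**Figure D4:**
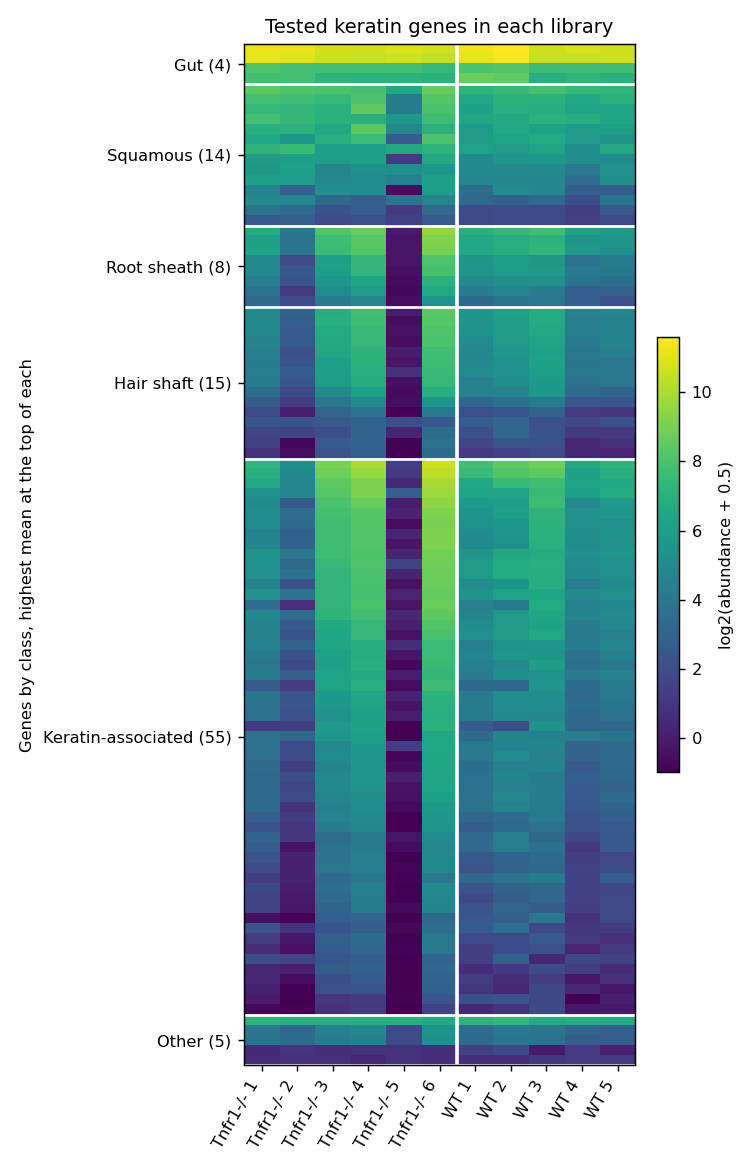
Heat map of log2(abundance + 0.5) for the 101 tested keratin genes, one row per gene grouped by class, one column per library with Tnfr1-/- to the left and wild type to the right. The hair genes form one pattern of columns, dark in Tnfr1-/- replicate 5 and brightest in replicate 6, while the rows of the 4 gut keratins are even.

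Hair genes outside the family followed the same libraries. The 7 genes of a hair follicle list summed to 133, 30.6, 352, 659, 2.66 and 1108 in Tnfr1-/- colons, against 189, 291, 322, 78.5 and 84.0 in wild-type colons; 5 had fold changes above 0, and none had an unadjusted p under 0.05. S100a3, a calcium-binding protein of the hair cuticle, ranged from 1.09 to 627 in Tnfr1-/- and from 43.6 to 200 in wild-type colons. Tchh, trichohyalin of the inner root sheath, ranged from 0.668 to 401 in Tnfr1-/- and from 26.6 to 95.5 in wild-type colons, and Padi3, an enzyme that modifies it, from 0.162 to 36.8 in Tnfr1-/- and from 2.56 to 9.78 in wild-type colons. The proportion of hair to squamous keratin also moved: Krt71 was 0.0237 times Krt5 in Tnfr1-/- replicate 5, 0.1001 times in replicate 2 and 3.06 times in replicate 6, against 0.728 to 1.87 times in wild-type colons. Tnfr1-/- replicate 2, low in hair genes, was not low in squamous keratins. The part of hair follicle tissue in these values was not tested.

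Without Tnfr1-/- replicate 5, the fold changes of the hair genes turned upward. Krt71 then had a log2 fold change of 0.63 and Krtap8-1 of 0.65, and 74 of the 78 hair genes tested lay above 0, with a median of 0.65. The squamous median became 0.92 with 14 of 14 above 0, and the gut median stayed at -0.12. Without that library 13 of 101 keratin genes had an unadjusted p under 0.05, 12.9% against 9.18% of all genes. Krt1, Krt4, Krt5, Krt6a, Krt10, Krt14, Krt15, Krt16, Krt23, Krt78, Krt79 and Krt80 were higher in Tnfr1-/- colons. Krt222 was lower, with a log2 fold change of -0.35. The groups of Krt5, Krt14 and Krt79 then did not overlap, 2.97% of the keratin genes against 2.27% of all genes. The smallest adjusted p was 0.215, for Krt14, so none was called. Tnfr1-/- replicate 5 was the lowest library for 86 of the 101 tested keratin genes, Krt5, Krt14 and Krt79 among them. Leaving it out was therefore bound to raise their fold changes, and the counts without it are description only.

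**Figure D5:**
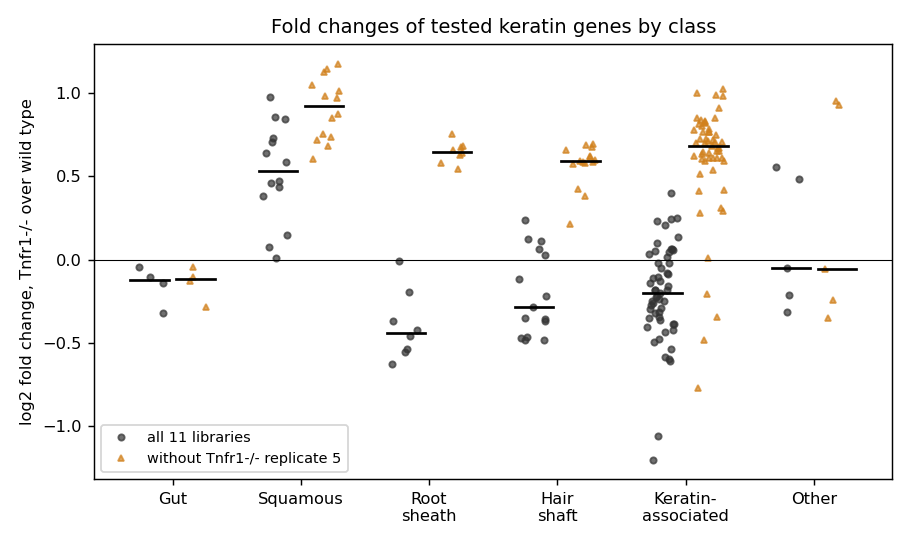
Log2 fold change, Tnfr1-/- over wild type, of each tested keratin gene by class, with all 11 libraries and without Tnfr1-/- replicate 5; black bars are class medians. The hair genes have a median of -0.23 with all libraries and 0.65 without replicate 5, while the gut median is -0.12 in both.

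Among the other keratins, Krt7, a type II keratin of simple and ductal epithelia, was at 139, 120, 121, 115, 120 and 97.0 in Tnfr1-/- colons, against 139, 161, 104, 113 and 104 in wild-type colons (log2 fold change -0.05 ± 0.12, SE; limma adjusted p = 0.941). It was 0.0520 to 0.0694 times Krt8 in all 11 libraries. Krt222, a keratin-like protein, was at 1.03 ± 0.19 in Tnfr1-/- and 1.41 ± 0.35 in wild-type colons (log2 fold change -0.31 ± 0.15, SE; limma adjusted p = 0.539). Krt7 held its place beside Krt8, whereas Krt80 and Krt23 moved with the squamous and hair keratins. Krt80 was at 46.1 in Tnfr1-/- replicate 6 and 2.92 in replicate 5, against 6.54 to 17.1 in wild-type colons, and Krt23 at 38.9 and 3.17, against 5.87 to 14.9. The pseudogene Krt8-ps was at 0.861 to 1.44 in Tnfr1-/- colons, against 0.453 to 3.22 in wild-type colons, and it may share reads with Krt8. Krt90 peaked at 0.342 and Krt88 at 0.133, and neither was tested.

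Proteins that anchor keratin filaments were also read. Of 12 desmosome and linker genes, 8 had fold changes above 0 and none had an unadjusted p under 0.05, with a median of 0.09 on the log2 scale. Jup, plakoglobin, was at 129 ± 13.9 in Tnfr1-/- and 121 ± 16.4 in wild-type colons. Dsp, desmoplakin, which ties keratin filaments to desmosomes, was at 93.7 ± 14.8 in Tnfr1-/- and 84.1 ± 16.1 in wild-type colons, and the desmosomal cadherin Dsc2 at 68.6 ± 5.63 in Tnfr1-/- and 75.6 ± 17.1 in wild-type colons. Of 14 other filament genes tested, 7 had fold changes above 0 and 7 below. Des, Vim and Lmna, filament proteins of muscle, mesenchyme and the nucleus, were at 417 ± 59.7, 325 ± 29.6 and 183 ± 29.9 in Tnfr1-/- colons, against 409 ± 137, 336 ± 105 and 172 ± 28.3 in wild-type colons. None of these genes was called.

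Markers of other tissues that a dissected colon can hold were read in the same libraries. Skeletal muscle genes, 6 in number, summed to 700, 7574, 514, 949, 2413 and 571 in Tnfr1-/- colons, against 629, 611, 395, 528 and 1627 in wild-type colons. The libraries highest for skeletal muscle, Tnfr1-/- replicates 2 and 5, were the lowest for hair genes. Acta1, Mylpf and Ckm led that list, at 626 ± 819, 602 ± 752 and 441 ± 578 in Tnfr1-/- colons, against 241 ± 140, 205 ± 130 and 158 ± 99.7 in wild-type colons. Urothelial genes, 3 of 5 tested, summed to 8.60 to 31.5 in Tnfr1-/- and 8.32 to 11.0 in wild-type colons, with Tnfr1-/- replicate 4 highest, the library that was also highest for Krt5 and Krt15. Upk1a was at 8.34 ± 4.22, Upk1b at 2.56 ± 1.44 and Upk3bl at 1.65 ± 1.11 in Tnfr1-/- colons, against 6.04 ± 1.35, 1.66 ± 0.37 and 1.28 ± 0.53 in wild-type colons. The untested Upk2 and Upk3a were at 3.74 and 2.55 in Tnfr1-/- replicate 4, against at most 0.267 and 0.468 in any other library. The part of these tissues in the keratin values was not tested.

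Smooth muscle, fibroblast and mesothelial genes overlapped between the groups. Smooth muscle genes summed to 6472 to 8681 in Tnfr1-/- and 4491 to 11806 in wild-type colons, led by Actg2 at 2008 ± 371 in Tnfr1-/- and 2030 ± 884 in wild-type colons, Tagln at 1881 ± 188 in Tnfr1-/- and 1868 ± 700 in wild-type colons, and Acta2 at 1674 ± 251 in Tnfr1-/- and 1681 ± 644 in wild-type colons. Fibroblast genes summed to 1900 to 2911 in Tnfr1-/- and 1533 to 3450 in wild-type colons. Col3a1, Col1a2 and Col1a1 were at 1402 ± 230, 353 ± 49.9 and 283 ± 44.2 in Tnfr1-/- colons, against 1342 ± 499, 319 ± 103 and 253 ± 86.3 in wild-type colons. Mesothelial genes were low, summing to 3.37 to 18.8 in Tnfr1-/- and 2.44 to 11.4 in wild-type colons, with Msln at 2.92 ± 1.94, Upk3b at 2.37 ± 2.25 and Gpm6a at 1.83 ± 0.71 in Tnfr1-/- colons, against 1.66 ± 0.99, 1.53 ± 1.11 and 1.59 ± 0.53 in wild-type colons. None of these genes was called.

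At the level of single transcripts, 118 keratin transcripts were tested, none was called, against 0.00902% of all 33276 transcripts, and 5 had an unadjusted p under 0.05, against 8.26% of all. The 5 included Krt13 transcript ENSMUST00000128934.1, at 31.0, 45.6, 14.6, 12.9, 20.5 and 35.0 in Tnfr1-/- colons, against 14.3, 6.18, 13.6, 5.97 and 12.3 in wild-type colons. Its difference on the log2 scale was 1.25 ± 0.37 (SE), with a limma adjusted p of 0.470, and 5 of 6 Tnfr1-/- libraries lay above every wild-type library. The others were the main transcripts of Krt4, Krt6a and Krt6b and a minor transcript of Krt7, ENSMUST00000153021.7, at 1.51 ± 0.57 in Tnfr1-/- and 0.812 ± 0.20 in wild-type colons (log2 fold change 0.58 ± 0.21, SE; limma adjusted p = 0.532). Krt8, Krt18 and Krt20 each had a single tested transcript with the values of the gene.

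Krt19 was split over 3 transcripts. ENSMUST00000007317.7 was at 977 ± 144 in Tnfr1-/- and 1081 ± 383 in wild-type colons, and ENSMUST00000126460.7 at 739 ± 170 in Tnfr1-/- and 841 ± 227 in wild-type colons. ENSMUST00000125888.1 was at 30.0 ± 17.1 in Tnfr1-/- and 36.8 ± 12.4 in wild-type colons. None had an unadjusted p under 0.05. In the authors' deposited table, 129 keratin transcripts carry a q-value and 0 were under 0.05, against 0.00201% of all. At a p under 0.05 the authors' deposited table had 2 of them, 1.55% against 4.39% of all transcripts, namely the same Krt13 transcript (p = 0.00527, q = 0.869) and that of Krt4 (p = 0.0451).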

How the data were processed

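RNA from dissected mouse colon was read from a single end on a NextSeq after stranded mRNA library preparation, per the labels' protocols. CASAVA, kallisto and sleuth are the tools in the submitters' processing notes, and mm10 the build, all without versions. The deposited table holds 113193 distinct transcripts on 113991 lines, and repeated lines, which hold identical values, were dropped. The authors' values are a normalized signal, TPM over a size factor. The deposited p-value and q-value columns and the log2 fold change are the authors' own. The authors' mean per transcript is on a natural log scale. No column belonged to a sample outside the series. The 97 transcripts without a gene, 0.031% of abundance, were left out.

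Values were summed per gene and tested on log2(value + 0.5) with limma 3.58.1 (R 4.3.3, trend on the mean), two-sided, with Benjamini-Hochberg adjustment over all genes at 1 or more in at least 5 libraries. The pseudocount understates changes of low genes. The scripts were tested on simulated data. Depth is not in the table and was read from the step of 1 read between low values: 51.7% to 52.8% of values of the transcripts used lay within 0.02 of a whole read, against 2.21% to 2.34% at other factors, so no count test was run. Promoter windows are from RefSeq (GRCm38.p6) and gene positions from GENCODE on GRCm38. Tables and figures were made with matplotlib 3.10.9, numpy 2.4.6 and pandas 2.3.3 under Python 3.11.15.

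The members and lists were chosen with earlier results of these data known, and the grouping of keratin-associated families was made after values were seen. Every tested keratin gene was to be named, with untested ones that reach 1, the tested transcripts of the gut keratins, other keratin transcripts at an unadjusted p under 0.05, and in each other list the 3 genes with the highest mean and any at that p. Alternatives were other pseudocounts, filters and scalings, sample quality weights, a replicate block, an epithelial covariate and leaving out each library.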

Additional observations from a re-analysis of the deposited data

Results flagged for a closer look

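Within each genotype, the highest and lowest library were compared with their nearest neighbour by Dixon's test on unlogged values. This was done for every keratin gene that reached 1 in any library and for the class sums, 224 groups of values in all. Chance alone would single out about 11.2 of them. The sums hold the same genes, so the groups are not independent. The test singled out 10. In 9 of them, wild-type replicate 3 stood above the other wild-type libraries in a keratin-associated gene of chromosome 16: Krtap15 at 198 (nearest other library 67.0), Krtap19-9b at 144 (68.3), Krtap16-3 at 143 (50.6), Krtap19-3 at 137 (47.2), Krtap19-5 at 128 (43.1), Krtap14 at 117 (45.5), Krtap19-4 at 103 (28.9), Krtap19-2 at 47.1 (18.6) and Krtap19-1 at 42.8 (9.13). These genes share a cluster and sequence, so the 9 are not separate events. In the tenth, Krt15 was at 341 in Tnfr1-/- replicate 4, with the nearest other Tnfr1-/- library at 142. The log2 values were not checked in this way. The list therefore does not tell how far a low library such as Tnfr1-/- replicate 5 stands apart on that scale.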

How the results depend on the processing

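No keratin gene was called in any of 20 other settings, 11 of which leave out a library; the smallest adjusted p among them was 0.177. For the 19 keratin genes whose log2 fold changes are printed, 354 of 377 values in these settings kept their direction and 23 turned. Over the 78 tested hair genes, 19 lay above 0 with all libraries and 74 without Tnfr1-/- replicate 5. Sample quality weights gave 3 called genes in the whole table and the epithelial covariate 6, against 1, and leaving out single libraries gave 1 to 2, with 2 without wild-type replicate 1. Keratin genes at an unadjusted p under 0.05 numbered 1 with sample quality weights, against 4, and 0 to 13 when a library was left out: 13 without Tnfr1-/- replicate 5, 0 without Tnfr1-/- replicate 1, 2 or 6 or wild-type replicate 4, and 1 without wild-type replicate 1, 2 or 3. Called transcripts numbered 3, and 1 to 10 when a library was left out: 10 when wild-type replicate 2 was dropped, 6 when number 4 or 5 of that genotype was, and 1 when number 1 was or when Tnfr1-/- replicate 3 or 5 was. The causes were not tested.

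Same-numbered libraries deviated together with correlations of 0.27, -0.01, 0.38, -0.22 and 0.33 for replicates 1 to 5, so the numbers were not taken as pairs. With the replicate block, 1 keratin gene had an unadjusted p under 0.05, and the log2 fold changes were 0.030 for Krt18 and 0.0062 for Krt7.

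The gut keratins and Krt7 lay below 0 by less than their errors and turned easily. With sample quality weights the log2 fold changes were 0.047 for Krt8, 0.071 for Krt18, 0.00031 for Krt19, 0.046 for Krt20, 0.084 for Krt7, 0.094 for Krt71 and 0.075 for Krtap8-1. With the epithelial covariate they were 0.11 for Krt8, 0.12 for Krt18, 0.095 for Krt19, 0.096 for Krt20 and 0.10 for Krt7. Leaving out single libraries gave -0.19 to 0.043 for Krt8, -0.12 to 0.049 for Krt18, -0.21 to 0.016 for Krt19, -0.11 to 0.049 for Krt7, -1.30 to 0.63 for Krt71 and -1.21 to 0.65 for Krtap8-1. The difference between group means of the log2 summed values ranged from -0.21 to 0.02 for gut, 0.46 to 0.94 for squamous and -1.09 to 0.69 for hair keratins, with the hair value above 0 only without Tnfr1-/- replicate 5. Depth limits the hair genes of Tnfr1-/- replicate 5, of which 74 lay below a value of 1.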
